A study of Homo sapiens with 8 samples.

Results

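The 38 genes of cholesterol and fatty acid synthesis described here encode the enzymes of the mevalonate and cholesterol pathways, their transcriptional regulators, and the enzymes of acetyl-CoA supply, fatty acid synthesis, desaturation and glycerolipid acylation. They were found by their symbols in the annotation of the array, using transcript clusters (the units the array summarises, about 1 per gene) with 1 symbol only and, for a gene with several such clusters, the one with the highest mean over the arrays. By this rule 36 of the 38 genes were measured, each with 1 of the 33297 clusters. FDFT1 had no cluster of its own and HSD17B7 only a cluster shared with a pseudogene, so neither enters the counts.

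The cells were of the RCC line 786-O, which lacks functional VHL, part of a ubiquitin ligase that directs hypoxia-inducible factors to breakdown. Either left untransfected (VHL-) or transfected with VHL (VHL+), they spent 24 h in normoxia or hypoxia (1% O2), and total RNA of 2 biological replicates of each of the 4 groups was hybridised to 8 gene arrays. Values are log2 signals, so a difference of 1 is a 2-fold difference in signal. All arrays come from the same line, and the VHL- cells carried no control vector, so an effect of VHL and an effect of transfection and selection cannot be told apart. The labels call the replicates biological without naming separate cultures, and the p-values measure the spread between these arrays.

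Array medians ran from 6.60 for VHL- hypoxia replicate 1 to 6.91 for VHL+ hypoxia replicate 1. VHL itself was higher in VHL+ cells by 0.52 under normoxia (SE 0.14, limma adjusted p = 0.0398) and by 0.75 under hypoxia (SE 0.14, limma adjusted p = 0.00211). Of the markers of renal tubule and clear cell carcinoma, PAX8, PAX2, KRT8, KRT18, VIM and CDH6 lay above the array median on all 8 arrays. The 7 measured markers of leukocytes, erythroid cells, endothelium and hepatocytes, PTPRC, CD3E, CD14, HBB, PECAM1, CDH5 and ALB, lay below it on all 8 arrays.

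Cells build cholesterol and fatty acids from the same cytosolic acetyl-CoA. When sterols are scarce, SCAP escorts the membrane-bound SREBP factors (encoded by SREBF1 and SREBF2) out of the endoplasmic reticulum and their released part switches on the genes of both pathways, whereas INSIG1 and INSIG2 hold SCAP back when sterols are plentiful. Clear cell RCC takes its name from the lipid and glycogen it stores, which makes these genes of interest in a VHL-deficient renal line.

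All of the 36 measured genes but ACACB lay above the array median on all 8 arrays. ACACB, which encodes the acetyl-CoA carboxylase bound to mitochondria, lay below the median on 4 arrays. The genes varied among the arrays to different degrees, from a span of 0.34 for TM7SF2, a sterol reductase, to a span of 2.30 for INSIG1. The heat map of all 36 genes shows lower signals of several genes on the VHL+ normoxia arrays, and within VHL- cells a contrast between replicates in HMGCS1, SQLE, SC5D, INSIG1 and STARD4.

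**Figure D1:**
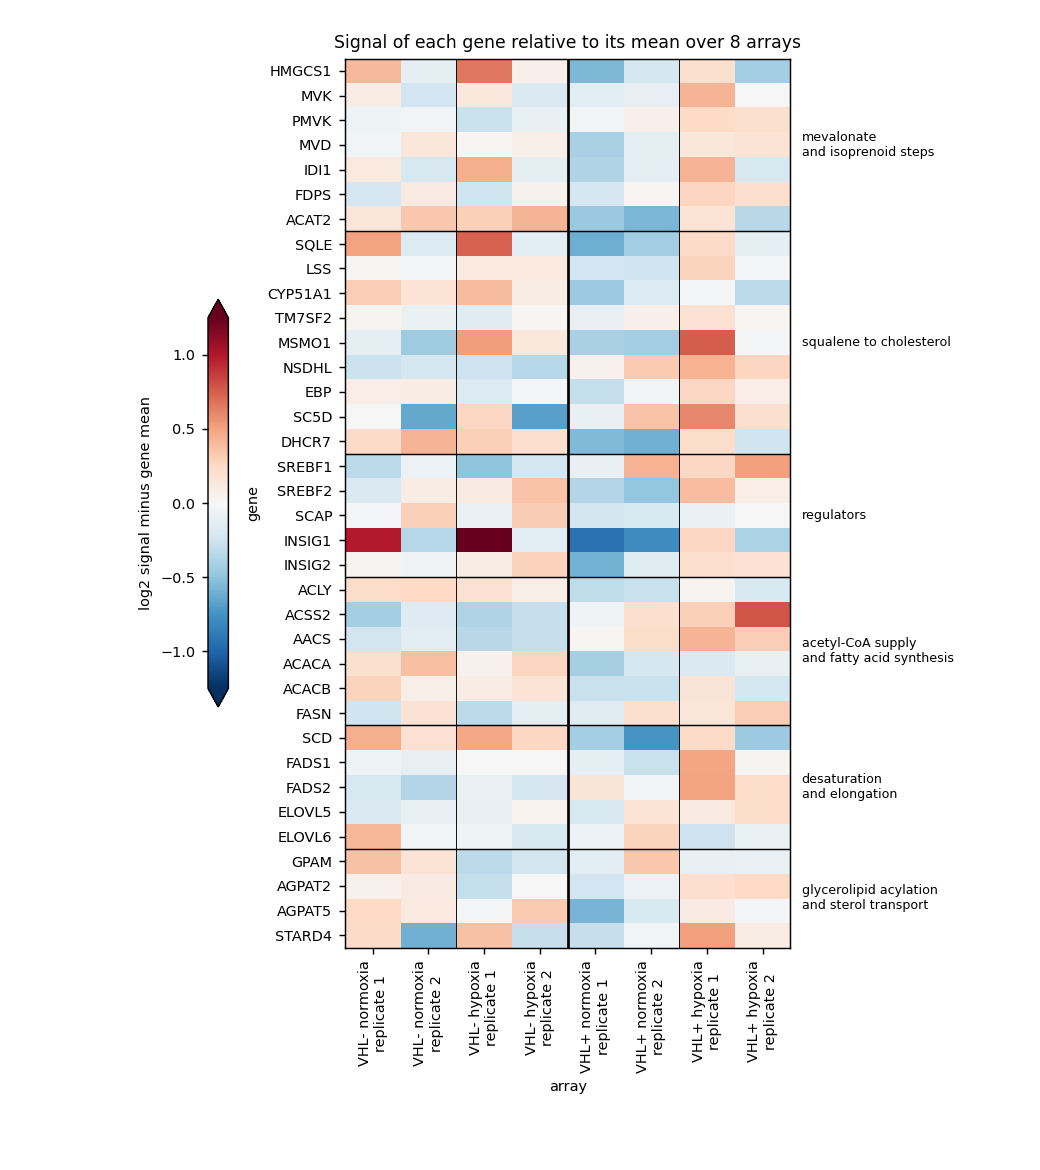
Log2 signal of each of the 36 measured genes on each of the 8 arrays (columns), minus the gene's mean over the arrays, with the genes ordered by role. INSIG1 has the widest range, from 7.73 in VHL+ normoxia replicate 1 to 10.03 in VHL- hypoxia replicate 1, and its value in that array lies beyond the end of the colour scale.

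The sequence before the start of transcription was available for 32 of the 36 genes, as windows of 300 bases (250 before and 50 after the start; RefSeq, GRCh38.p14). The core of the sterol regulatory element that SREBP factors bind (TCACNCCAC, searched on both strands) occurred in 1 of the 32 windows (3.12%), that of SREBF2, compared with 1.13% of 35116 RefSeq promoter windows of the same length. A CCAAT box (CCAAT on either strand), the site of NF-Y, which works beside SREBP factors, occurred in 19 of 32 (59.4%), compared with 34.6% of all windows. The core of the hypoxia response element (ACGTG or GCGTG on either strand) occurred in 26 of 32 (81.2%), compared with 48.4%. In SREBF2 a match of the hypoxia core, at bases -127 to -123 from the start, overlaps the sterol element at -133 to -125. These are matches of letters and not measured binding. The comparison took all windows, without matching for base composition or expression, and the source of the higher shares was not tested. The 250 bases before the start are shown for 5 genes: SREBF2 (chr22:41832855-41833104, plus strand), which holds the sterol element, INSIG1 (chr7:155297628-155297877, plus strand), which varied over the widest range, DHCR7 (chr11:71448394-71448643, minus strand) and SCD (chr10:100346983-100347232, plus strand), which were lower in VHL+ cells, and NSDHL (chrX:152830813-152831062, plus strand), which was higher. Each runs 5′ to 3′ on the strand of its gene, and capitals mark the sterol element and the CCAAT boxes.
SREBF2: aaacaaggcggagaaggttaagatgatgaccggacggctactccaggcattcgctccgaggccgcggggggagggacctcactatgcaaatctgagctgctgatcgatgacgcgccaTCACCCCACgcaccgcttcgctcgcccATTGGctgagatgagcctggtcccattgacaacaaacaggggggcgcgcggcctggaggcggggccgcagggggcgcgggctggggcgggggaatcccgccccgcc
INSIG1: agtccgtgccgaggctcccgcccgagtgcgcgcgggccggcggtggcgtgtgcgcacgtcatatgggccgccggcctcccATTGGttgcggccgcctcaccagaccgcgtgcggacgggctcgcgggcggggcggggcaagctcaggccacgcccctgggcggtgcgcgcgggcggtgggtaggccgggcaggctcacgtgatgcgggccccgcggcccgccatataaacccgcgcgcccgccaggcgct
DHCR7: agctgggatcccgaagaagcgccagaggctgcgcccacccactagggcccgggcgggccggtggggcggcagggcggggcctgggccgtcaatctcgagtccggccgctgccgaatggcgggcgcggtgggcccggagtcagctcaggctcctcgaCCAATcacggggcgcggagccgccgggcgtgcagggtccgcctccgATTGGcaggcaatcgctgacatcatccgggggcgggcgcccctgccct
SCD: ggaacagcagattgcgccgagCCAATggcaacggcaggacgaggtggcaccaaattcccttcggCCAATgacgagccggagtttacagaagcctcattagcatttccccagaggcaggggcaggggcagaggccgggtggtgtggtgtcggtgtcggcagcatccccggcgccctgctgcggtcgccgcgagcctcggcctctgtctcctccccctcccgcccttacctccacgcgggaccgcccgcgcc
NSDHL: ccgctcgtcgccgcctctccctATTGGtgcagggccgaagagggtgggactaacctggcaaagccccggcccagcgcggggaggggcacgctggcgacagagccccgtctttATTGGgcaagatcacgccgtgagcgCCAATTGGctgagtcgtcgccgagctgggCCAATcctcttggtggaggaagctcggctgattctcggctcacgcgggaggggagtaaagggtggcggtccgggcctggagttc
SREBF2 carries 1 CCAAT box in reverse, at -106 to -102, and INSIG1 carries 1 in reverse at -170 to -166. DHCR7 has 2 and SCD has 2, while the NSDHL stretch holds 5, of which 2 share bases.

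The first comparison was of VHL+ with VHL- cells under normoxia. DHCR7, ACAT2, SCD, ACACA, ACLY and AGPAT5 were lower in VHL+ cells, with log2 fold changes from -0.91 to -0.54, and no gene was higher. These 6 of 36 genes make 16.7%, whereas limma called 4.77% of all clusters, 2.69% as lower and 2.07% as higher. Leaving out dim clusters, those that exceeded their array's median on fewer than 2 arrays, left 17687 clusters, of which 6.22% were called. In that fit 5 of the 36 genes passed (13.9%). The median of the 36 log2 fold changes was -0.22 and that of all clusters -0.04, with 25 of the 36 values below 0. In 19 genes both VHL+ arrays lay below both VHL- arrays (26.2% of all clusters), and in 5 both lay above (14.2% of all clusters).

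On the sterol side, ACAT2 encodes the cytosolic thiolase that joins acetyl-CoA units at the entry to the mevalonate pathway. Its signals under normoxia were 8.60 and 8.79 in VHL- and 7.98 and 7.88 in VHL+ cells, and under hypoxia 8.75 and 8.87 in VHL- and 8.62 and 8.10 in VHL+ cells. The groups did not overlap in either condition, although VHL+ hypoxia replicate 1 came close to the VHL- arrays. That array also had the highest median over all clusters, 6.91, beside 6.60 to 6.79 on VHL- arrays. Under normoxia the log2 fold change of ACAT2 was -0.76 (SE 0.16, limma adjusted p = 0.00743), a level 1.70-fold lower. DHCR7, the reductase that makes cholesterol from its direct precursor, had 9.48 and 9.66 in VHL- and 8.69 and 8.64 in VHL+ cells under normoxia, and under hypoxia 9.54 and 9.45 in VHL- and 9.47 and 8.99 in VHL+ cells. It was therefore low on both VHL+ normoxia arrays and lay between the groups on VHL+ hypoxia replicate 2. In signals not scaled to the array median, it reached the VHL- level on VHL+ hypoxia replicate 1, the array with the highest median. The log2 fold change of DHCR7 under normoxia was -0.91 (SE 0.16, limma adjusted p = 0.00150), a level 1.87-fold lower. No other enzyme of the sterol pathway passed the threshold under normoxia. CYP51A1, the demethylase of lanosterol, came nearest with -0.55 (SE 0.16, limma adjusted p = 0.0516), and NSDHL, a dehydrogenase that removes methyl groups from sterol precursors, had 0.43 (SE 0.14, limma adjusted p = 0.105).

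On the fatty acid side, ACLY cleaves citrate to acetyl-CoA in the cytosol. Its signals under normoxia were 11.16 and 11.18 in VHL- and 10.61 and 10.65 in VHL+ cells, and under hypoxia 11.11 and 11.00 in VHL- and 10.95 and 10.73 in VHL+ cells. Replicates were close together, and every VHL+ array lay below every VHL- array. The log2 fold change under normoxia was -0.54 (SE 0.14, limma adjusted p = 0.0257). ACACA, the carboxylase of the committed step of fatty acid synthesis, had 8.21 and 8.38 in VHL- and 7.59 and 7.79 in VHL+ cells under normoxia, and under hypoxia 8.07 and 8.28 in VHL- and 7.83 and 7.92 in VHL+ cells. Its VHL+ arrays also lay below all VHL- arrays, with a log2 fold change of -0.60 under normoxia (SE 0.14, limma adjusted p = 0.0165).

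SCD introduces the double bond of oleate and palmitoleate. Under normoxia it had 10.49 and 10.23 in VHL- and 9.61 and 9.30 in VHL+ cells, and under hypoxia 10.52 and 10.29 in VHL- and 10.28 and 9.58 in VHL+ cells. VHL+ hypoxia replicate 1, the array with the highest median over all clusters, again lay near the VHL- arrays. The log2 fold change under normoxia was -0.90 (SE 0.19, limma adjusted p = 0.00750), 1.87-fold lower, and its adjusted p after quantile normalization of the arrays was 0.113. With that normalization 6 genes were lower (background 5.42%), SCD losing its call and ACACB gaining one. AGPAT5, an acyltransferase that converts lysophosphatidic acid to phosphatidic acid, had 8.62 and 8.49 in VHL- and 7.79 and 8.19 in VHL+ cells under normoxia, and under hypoxia 8.36 and 8.70 in VHL- and 8.48 and 8.35 in VHL+ cells. Its groups were apart under normoxia and overlapped under hypoxia, and the log2 fold change under normoxia was -0.57 (SE 0.16, limma adjusted p = 0.0458). Neither FASN, the fatty acid synthase itself, with 0.06 (SE 0.17), nor the elongases ELOVL5 with 0.13 (SE 0.15) and ELOVL6 with -0.09 (SE 0.17) passed the threshold. DHCR7, ACAT2 and SCD passed whichever of the 8 arrays was left out, whereas ACACA passed with 4 of the 8 left out, AGPAT5 with 3 and ACLY with 2. ACACA lost its call without VHL- normoxia replicate 2, VHL+ normoxia replicate 1 or either VHL+ hypoxia array, with adjusted p up to 0.219. AGPAT5 lost it without either VHL- normoxia array, VHL+ normoxia replicate 1 or either VHL+ hypoxia array, with adjusted p up to 0.351 and a log2 fold change of -0.37 without VHL+ normoxia replicate 1. ACLY lost it without any one of the 6 arrays other than those of VHL- hypoxia, with adjusted p up to 0.197.

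**Figure D2:**
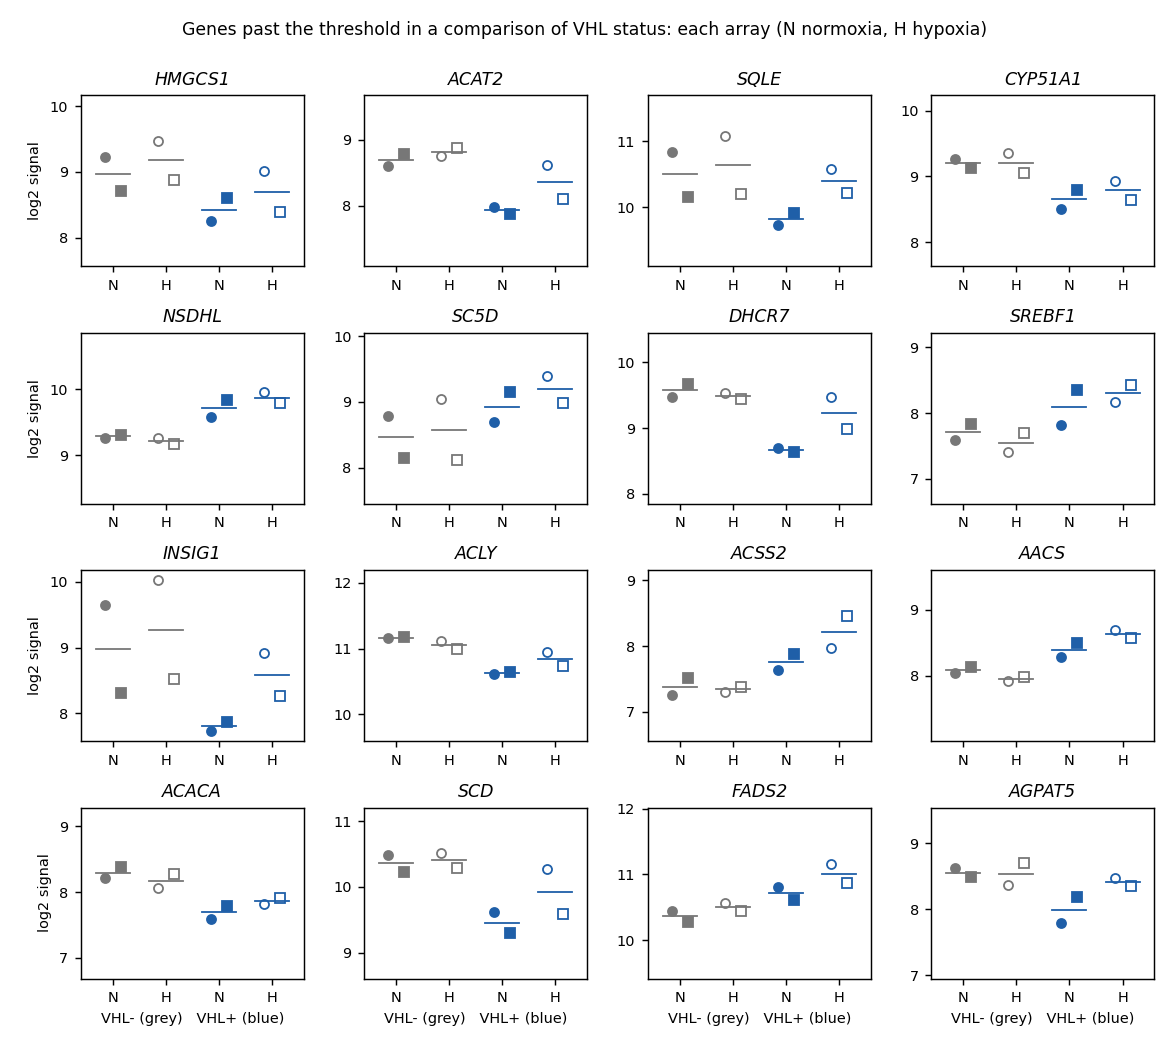
Log2 signal of the 16 genes past the threshold in at least 1 comparison of VHL status, with VHL- cells in grey, VHL+ cells in blue, normoxia filled, hypoxia open, replicate 1 as circles, replicate 2 as squares and the group mean as a line; every panel spans the same number of log2 units. All 4 blue points of ACLY, ACACA and CYP51A1 lie below all 4 grey points, and all 4 blue points of NSDHL, ACSS2, AACS and FADS2 lie above them.

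The same comparison under hypoxia gave calls in the other direction. ACSS2, SREBF1, AACS, NSDHL and FADS2 were higher in VHL+ cells, by 0.51 to 0.88, and no gene was lower. These 5 of 36 genes make 13.9%, beside 11.6% of all clusters, 10.3% as higher and 1.31% as lower, so the share of called genes was near that of the array as a whole. With dim clusters left out, the share of the 36 genes was 13.9% and that of the remaining clusters 17.6%. The median of the 36 genes was 0.08 and that of all clusters 0.16. The scaling of the arrays matters for this comparison, because the median of all clusters moved from 0.16 to 0.0014 with quantile normalization and the calls over all clusters from 3437 higher and 436 lower to 920 higher and 911 lower. After quantile normalization 14 of the 36 genes lay above 0 in place of 21, their median was -0.18, and the calls were AACS as higher (adjusted p = 0.0188) and ACACA as lower (adjusted p = 0.0145), beside 5.50% of all clusters, 2.76% as higher and 2.74% as lower. In 15 genes both VHL+ arrays lay above both VHL- arrays (46.4% of all clusters) and in 5 below them (4.81%).

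Among the higher genes, ACSS2 and AACS supply acetyl-CoA units from sources other than citrate. ACSS2, which activates acetate, had under normoxia 7.25 and 7.52 in VHL- and 7.63 and 7.88 in VHL+ cells, and under hypoxia 7.30 and 7.39 in VHL- and 7.98 and 8.46 in VHL+ cells. All VHL+ arrays lay above all VHL- arrays, and the highest was VHL+ hypoxia replicate 2. The log2 fold change under hypoxia was 0.88 (SE 0.16, limma adjusted p = 0.00204), 1.84-fold higher, and 0.37 under normoxia (SE 0.16, limma adjusted p = 0.301). AACS, which activates acetoacetate for sterol and fatty acid synthesis, had 8.04 and 8.14 in VHL- and 8.29 and 8.50 in VHL+ cells under normoxia, and under hypoxia 7.92 and 7.98 in VHL- and 8.69 and 8.57 in VHL+ cells. The groups were apart in both conditions. Its log2 fold change was 0.69 under hypoxia (SE 0.14, limma adjusted p = 0.00319) and 0.30 under normoxia (SE 0.14, limma adjusted p = 0.317).

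NSDHL had 9.25 and 9.31 in VHL- and 9.58 and 9.84 in VHL+ cells under normoxia, and under hypoxia 9.26 and 9.17 in VHL- and 9.95 and 9.79 in VHL+ cells. It was thus higher on all VHL+ arrays. The other genes between squalene and cholesterol were mixed in their fold changes with VHL. SQLE, CYP51A1 and DHCR7 lay below 0 in both conditions, and SC5D and TM7SF2 above 0 in both. LSS, MSMO1 and EBP lay below 0 under normoxia and above 0 under hypoxia, where LSS had 0.01 (SE 0.14) and MSMO1 0.05 (SE 0.20). These signs depended on the scaling. After quantile normalization LSS (-0.23), MSMO1 (-0.20), EBP (-0.01) and TM7SF2 (-0.02) lay below 0 under hypoxia. Under hypoxia the log2 fold change of NSDHL was 0.66 (SE 0.14, limma adjusted p = 0.00513), 1.58-fold higher. FADS2, the desaturase at the start of polyunsaturated fatty acid synthesis, had 10.44 and 10.28 in VHL- and 10.81 and 10.61 in VHL+ cells under normoxia, and under hypoxia 10.56 and 10.44 in VHL- and 11.15 and 10.87 in VHL+ cells. Its groups were apart in both conditions, with a log2 fold change of 0.51 under hypoxia (SE 0.14, limma adjusted p = 0.0267). Leaving out VHL+ hypoxia replicate 1 left 1 call, ACSS2, and leaving out VHL+ hypoxia replicate 2 left none, where 0.769% and 1.79% of all clusters were called. At an unadjusted p under 0.05 there were 14 and 8 genes (38.9% and 22.2%), beside 14.6% and 30.1% of all clusters. Quantile normalization lowered the log2 fold changes under hypoxia to 0.38 for NSDHL, 0.50 for SREBF1, 0.42 for AACS and 0.28 for FADS2. Without VHL- hypoxia replicate 2, FADS2 also lost its call, and the highest adjusted p of FADS2 over the 8 arrays left out was 0.291.

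**Figure D3:**
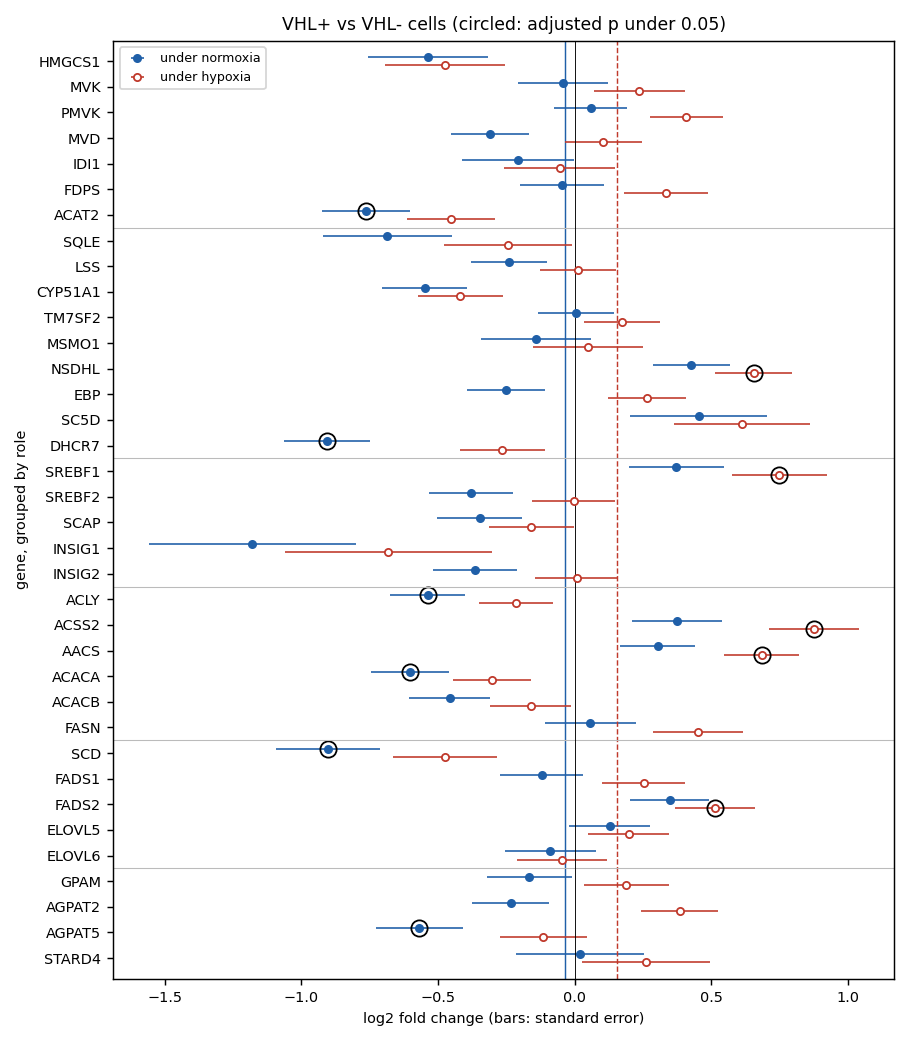
Log2 fold change of VHL+ vs VHL- cells (x axis, bars are standard errors) for each of the 36 genes under normoxia (blue) and hypoxia (red, open), with vertical lines at the medians of all clusters, -0.04 and 0.16, and black circles around values past the threshold. The 6 circled values under normoxia lie below 0 and the 5 circled values under hypoxia above it.

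Set side by side, the 6 genes lower under normoxia had log2 fold changes under hypoxia of -0.26 for DHCR7, -0.45 for ACAT2, -0.47 for SCD, -0.30 for ACACA, -0.21 for ACLY and -0.11 for AGPAT5. None of these passed the threshold. After quantile normalization the values under hypoxia were -0.54 for DHCR7, -0.72 for ACAT2, -0.73 for SCD, -0.56 for ACACA and -0.45 for ACLY. Under normoxia the values so normalised were -0.92, -0.76, -0.93, -0.61 and -0.55 in the same order. With that normalization ACACA passed as lower under hypoxia (limma adjusted p = 0.0145), so the contrast between the conditions depended on the scaling. Of the genes higher under hypoxia, SREBF1 had 0.37 (SE 0.17), NSDHL 0.43 and FADS2 0.35 (SE 0.14) under normoxia. The difference between the effects of VHL under the 2 oxygen conditions, tested as an interaction, passed for none of the 36 genes (background 0.00601% of clusters). At an unadjusted p under 0.05 there were 4 genes (11.1%, beside 5.61% of all clusters). The smallest p belonged to AGPAT2, an acyltransferase of phosphatidic acid synthesis, with a difference of 0.62 (SE 0.20, limma adjusted p = 0.651), and to DHCR7 with 0.64 (SE 0.22, limma adjusted p = 0.651).

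Over both oxygen conditions, with 4 arrays a side and the oxygen condition in the fit, VHL+ cells had 6 genes higher and 9 lower. These 15 genes are 41.7% of the 36, beside 14.3% of all clusters, 10.6% as higher and 3.72% as lower. With dim clusters left out, 14 of the 36 genes passed (38.9%), beside 23.9% of the remaining clusters. The median of the 36 genes was -0.06 and that of all clusters 0.06. After quantile normalization 4 genes were higher and 12 lower, 10 of the 15 genes keeping their call, and the calls over all clusters changed from 3531 higher and 1239 lower to 2798 higher and 2530 lower (16.0% in all, 8.40% as higher and 7.60% as lower). In 5 genes all VHL+ arrays lay above all VHL- arrays (10.1% of all clusters) and in 3 below them (3.34%). ACAT2, CYP51A1, NSDHL, DHCR7, ACSS2, AACS, ACACA and SCD passed in each of the 7 settings tried and with each of the 8 arrays left out.

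By role, the mevalonate steps held 2 lower genes of 7. ACAT2 had a log2 fold change of -0.61 (SE 0.12, limma adjusted p = 0.000537). HMGCS1, the synthase that makes the precursor of mevalonate, had 9.22 and 8.70 in VHL- and 8.25 and 8.60 in VHL+ cells under normoxia, and under hypoxia 9.48 and 8.88 in VHL- and 9.01 and 8.39 in VHL+ cells. Replicate 1 of HMGCS1 was the higher one in 3 of the 4 groups and the cell types overlapped, with a log2 fold change of -0.51 (SE 0.14, limma adjusted p = 0.0160). Its adjusted p was 0.0740 after quantile normalization and rose to at most 0.0809 without VHL- hypoxia replicate 1 or VHL+ hypoxia replicate 1. The kinases MVK and PMVK, the decarboxylase MVD, the isomerase IDI1 and the farnesyl diphosphate synthase FDPS did not pass, with values from -0.13 to 0.23.

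Between squalene and cholesterol 3 of 9 genes were lower and 2 higher. CYP51A1 had 9.27 and 9.13 in VHL- and 8.51 and 8.79 in VHL+ cells under normoxia, and under hypoxia 9.36 and 9.06 in VHL- and 8.94 and 8.64 in VHL+ cells. All VHL+ arrays lay below all VHL- arrays, and the log2 fold change was -0.48 (SE 0.11, limma adjusted p = 0.00325), 1.40-fold lower. DHCR7 had -0.59 (SE 0.13, limma adjusted p = 0.00188) and NSDHL 0.54 (SE 0.11, limma adjusted p = 0.000633). SQLE, the epoxidase of squalene, had 10.84 and 10.16 in VHL- and 9.72 and 9.90 in VHL+ cells under normoxia, and under hypoxia 11.08 and 10.20 in VHL- and 10.57 and 10.21 in VHL+ cells. Its cell types overlapped under hypoxia, and -0.46 (SE 0.16, limma adjusted p = 0.0499) was at the threshold. SC5D, a desaturase of late sterol intermediates, had 8.78 and 8.15 in VHL- and 8.69 and 9.15 in VHL+ cells under normoxia, and under hypoxia 9.05 and 8.11 in VHL- and 9.39 and 8.99 in VHL+ cells. Here the lowest arrays were the second replicates of VHL- cells, and the log2 fold change was 0.53 (SE 0.16, limma adjusted p = 0.0239). SQLE lost its call without replicate 1 of any of the 4 groups (adjusted p up to 0.225, with -0.28 without VHL- normoxia replicate 1), and SC5D without VHL- hypoxia replicate 2, where it had 0.33, or VHL+ hypoxia replicate 1 (adjusted p up to 0.415). After quantile normalization the adjusted p was 0.137 for SQLE and 0.395 for SC5D. LSS, TM7SF2, MSMO1 and EBP did not pass, with values from -0.11 to 0.09.

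Among the 5 regulators, SREBF1 was higher and INSIG1 lower over both conditions. SREBF1, whose product SREBP1 acts mainly on fatty acid genes, had 7.59 and 7.84 in VHL- and 7.82 and 8.35 in VHL+ cells under normoxia, and under hypoxia 7.42 and 7.69 in VHL- and 8.18 and 8.43 in VHL+ cells. Replicate 2 was the higher one in each group, and the VHL+ array nearest to the VHL- cells was normoxia replicate 1. The log2 fold change was 0.75 under hypoxia (SE 0.17, limma adjusted p = 0.00860) and 0.56 over both conditions (SE 0.13, limma adjusted p = 0.00230), the latter with an adjusted p of 0.0802 without VHL+ hypoxia replicate 1. The call under hypoxia was lost without either VHL+ hypoxia array, with adjusted p of 0.146 and 0.148, and after quantile normalization (adjusted p = 0.128). SREBF2, whose product SREBP2 acts mainly on sterol genes, had 8.31 and 8.58 in VHL- and 8.13 and 8.01 in VHL+ cells under normoxia, and under hypoxia 8.61 and 8.85 in VHL- and 8.87 and 8.58 in VHL+ cells. The 2 lowest values were those of VHL+ cells under normoxia, and under hypoxia the cell types overlapped. SREBF2 had -0.38 with VHL under normoxia (SE 0.15, limma adjusted p = 0.223) and -0.0032 under hypoxia (SE 0.15).

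INSIG1 is a target of SREBP factors as well as a brake on them. Its signals under normoxia were 9.65 and 8.31 in VHL- and 7.73 and 7.87 in VHL+ cells, and under hypoxia 10.03 and 8.52 in VHL- and 8.92 and 8.26 in VHL+ cells. The first replicates of VHL- cells stood well above all other arrays, both VHL+ normoxia arrays lay lowest, and the cell types overlapped under hypoxia. Over both conditions the log2 fold change was -0.93 (SE 0.24, limma adjusted p = 0.00704), which had adjusted p = 0.134 once quantile-normalised and 0.154 without VHL+ hypoxia replicate 1. Its size depended on single arrays, from -1.28 without VHL- hypoxia replicate 2 to -0.61 without VHL- normoxia replicate 1. INSIG2 had 7.49 and 7.41 in VHL- and 6.87 and 7.30 in VHL+ cells under normoxia, and under hypoxia 7.55 and 7.74 in VHL- and 7.67 and 7.64 in VHL+ cells. SCAP had 8.50 and 8.82 in VHL- and 8.29 and 8.33 in VHL+ cells under normoxia, and under hypoxia 8.44 and 8.83 in VHL- and 8.44 and 8.52 in VHL+ cells. Neither passed the threshold over both conditions, with -0.18 (SE 0.12) for INSIG2 and -0.25 (SE 0.11) for SCAP.

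The 6 genes of acetyl-CoA supply and fatty acid synthesis were split by VHL, with ACSS2 (0.62, SE 0.13, limma adjusted p = 0.000819) and AACS (0.49, SE 0.11, limma adjusted p = 0.00197) higher and ACACA (-0.45, SE 0.11, limma adjusted p = 0.00441) and ACLY (-0.38, SE 0.11, limma adjusted p = 0.0158) lower. In RNA signal, the gene for making cytosolic acetyl-CoA from citrate was lower where those for activating acetate and acetoacetate were higher. The arrays did not measure enzyme amounts or the source of acetyl-CoA. ACLY lost its call without either VHL- normoxia array, VHL+ normoxia replicate 2 or VHL+ hypoxia replicate 2, with adjusted p up to 0.0897. ACACB had -0.31 (SE 0.11, limma adjusted p = 0.0666) and FASN 0.25 (SE 0.12, limma adjusted p = 0.214). Of the 5 desaturases and elongases, SCD was lower (-0.69, SE 0.14, limma adjusted p = 0.000630) and FADS2 higher (0.43, SE 0.11, limma adjusted p = 0.00583), the latter losing its call after quantile normalization (adjusted p = 0.122). FADS1, the partner desaturase of FADS2, had 0.07 (SE 0.12). No gene of glycerolipid acylation and sterol transport passed over both conditions, and AGPAT5 had -0.34 (SE 0.12, limma adjusted p = 0.0610). After quantile normalization AGPAT5 passed as lower (adjusted p = 0.00438).

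The next comparison was of hypoxia with normoxia within each cell type. None of the 36 genes passed the threshold in VHL- cells or in VHL+ cells, where limma called 0.0661% and 0.153% of all clusters. At an unadjusted p under 0.05 there were 2 of the 36 genes in VHL- cells and 15 in VHL+ cells, beside 1765 and 2052 of the 33297 clusters. After quantile normalization there were 4 and 8 such genes (11.1% and 22.2%, beside 5.72% and 5.45% of all clusters). By the methods' one-way test there were 2 and 1 (5.56% and 2.78%, beside 7.80% and 3.90%). The count of calls was also 0 in both cell types with limma after quantile normalization and with the one-way test (quantile background 0.00300% of clusters in VHL+ cells). The count was not 0 in each setting: a trend with robust estimation gave 1 gene in VHL+ cells (0.547% of all clusters), and the replicate number as a block gave 6 genes in VHL+ cells (1.01% of all clusters) and 1 in VHL- cells (0.661%). Of 4 genes induced by hypoxia in many cells, NDRG1, SLC2A1, ADM and EGLN3, NDRG1 alone passed in VHL- cells, with 1.07 (SE 0.14, limma adjusted p = 0.00489), and this call was lost after quantile normalization. SLC2A1 had 0.54 (SE 0.16), ADM 0.29 (SE 0.18) and EGLN3 -0.22 (SE 0.15) in VHL- cells. In VHL+ cells NDRG1 rose by 2.28 (SE 0.14, limma adjusted p = 1.48e-07), SLC2A1 by 1.49 (SE 0.16, limma adjusted p = 0.000351) and ADM by 1.19 (SE 0.18, limma adjusted p = 0.00874), of which NDRG1 alone passed after quantile normalization, and EGLN3 had 0.37 (SE 0.15, limma adjusted p = 0.699).

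In VHL- cells the smallest p was that of GPAM, the mitochondrial acyltransferase that starts glycerolipid synthesis. Its signals in VHL- cells were 8.06 and 7.87 under normoxia and 7.37 and 7.47 under hypoxia, and in VHL+ cells 7.56 and 8.04 under normoxia and 7.60 and 7.62 under hypoxia. The groups were apart in VHL- cells and overlapped in VHL+ cells, and the log2 fold change in VHL- cells was -0.54 (SE 0.16, limma adjusted p = 0.400). MSMO1 is an oxidase that takes part in the removal of sterol methyl groups and consumes molecular oxygen. In VHL- cells MSMO1 had 9.81 and 9.47 on the normoxic and 10.44 and 10.05 on the hypoxic arrays. In VHL+ cells MSMO1 had 9.51 and 9.48 on the normoxic and 10.67 and 9.91 on the hypoxic arrays. Hypoxic arrays lay above normoxic arrays in both cell types. The log2 fold change of MSMO1 was 0.60 in VHL- cells (SE 0.20, limma adjusted p = 0.619) and 0.79 in VHL+ cells (SE 0.20, limma adjusted p = 0.219).

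In VHL+ cells 34 of the 36 log2 fold changes with hypoxia were above 0, with a median of 0.33 beside 0.09 for all clusters, and in VHL- cells 17 were above 0, with a median of -0.01 beside -0.12 for all clusters. After quantile normalization these became 33 with a median of 0.17 and 26 with a median of 0.08, so in VHL- cells the sign of the median depended on the scaling. In 24 genes both hypoxic arrays of VHL+ cells lay above both normoxic arrays (28.0% of all clusters) and in 1 below (2.38%). In VHL- cells 6 genes did so (2.47%) and 7 lay below (45.5%). The smallest p in VHL+ cells was that of SREBF2, with 0.66 (SE 0.15, 95% interval 0.34 to 0.98, limma adjusted p = 0.135; 0.724 after quantile normalization). Without any one of the arrays of VHL- cells, which carry no signal of this contrast but enter the shared estimate of the spread, SREBF2 (adjusted p from 0.00879 to 0.0286) and MSMO1 (from 0.00104 to 0.00167) passed in VHL+ cells. All 16 measured enzymes of sterol synthesis had values above 0 in VHL+ cells, from 0.13 for TM7SF2 to 0.79 for MSMO1, and 15 of them did so after quantile normalization. Replicates differed in this: hypoxia replicate 1 lay above normoxia replicate 1 for all 16 enzymes. Between the arrays of replicate 2, HMGCS1 (-0.21), SC5D (-0.16), CYP51A1 (-0.15), IDI1 (-0.08), NSDHL (-0.05) and TM7SF2 (-0.04) were lower under hypoxia and the other enzymes higher. Besides MSMO1, the oxygen-consuming enzymes SQLE, CYP51A1 and SC5D of this pathway had 0.58 (SE 0.24), 0.14 (SE 0.16) and 0.27 (SE 0.25) in VHL+ cells. The 2 values below 0 were those of the elongase ELOVL6 (-0.27, SE 0.17) and GPAM (-0.19, SE 0.16). The difference in the response to hypoxia between the cell types is the interaction given above, which no gene passed, so the larger values in VHL+ cells are not shown to differ from those in VHL- cells.

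**Figure D4:**
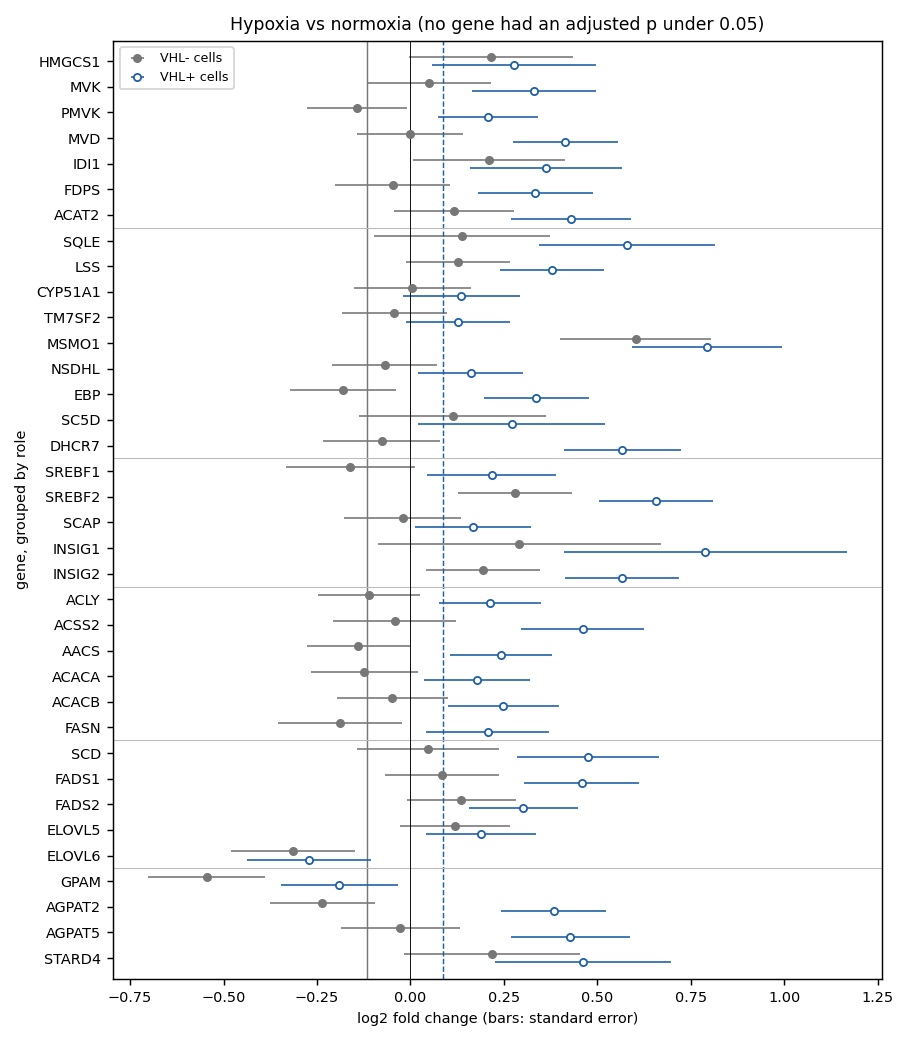
Log2 fold change of hypoxia vs normoxia (x axis, bars are standard errors) for each of the 36 genes in VHL- cells (grey) and VHL+ cells (blue, open), with vertical lines at the medians of all clusters, -0.12 and 0.09. In VHL+ cells 34 of 36 points lie above 0 and in VHL- cells 17, and no point passed the threshold.

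Replicates of the same group differed widely in some of these genes. INSIG1 was higher in replicate 1 than in replicate 2 by 1.35 in VHL- cells under normoxia and by 1.51 in VHL- cells under hypoxia. These were rank 14 and rank 10 among the 33297 clusters, ordered with sign from the most positive difference down. In VHL+ cells the difference was -0.15 under normoxia and 0.66 under hypoxia. The same direction in VHL- cells was seen for SQLE with 0.68 and 0.88, SC5D with 0.63 and 0.94, HMGCS1 with 0.52 and 0.60, and STARD4, a carrier of cholesterol between membranes, with 0.84 and 0.66. Under normoxia these 5 genes alone differed by more than 0.5 between the replicates of VHL- cells (13.9% of the 36 genes, 3.18% of all clusters), and under hypoxia IDI1, with 0.57, joined them (16.7%, 4.80% of all clusters). In VHL+ cells 1 gene did so under normoxia (2.78%, 4.84% of all clusters) and 6 under hypoxia (16.7%, 2.09% of all clusters). Of the 36 genes, replicate 1 of VHL- cells was the higher one in 19 under normoxia and in 16 under hypoxia. MVK, MSMO1, CYP51A1 and SCD were also higher in replicate 1 in both conditions. Within VHL- cells the enzyme genes DHCR7, ACAT2 and LSS did not share this contrast, with differences between -0.18 and 0.09. In VHL+ cells under hypoxia their differences were 0.48, 0.52 and 0.30. The labels give no batch, culture day or passage for these replicates, and neither the cell culture nor the RNA preparation was tested as a source. In bulk RNA, fewer expressing cells and less RNA per cell cannot be told apart for any of these genes.

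**Figure D5:**
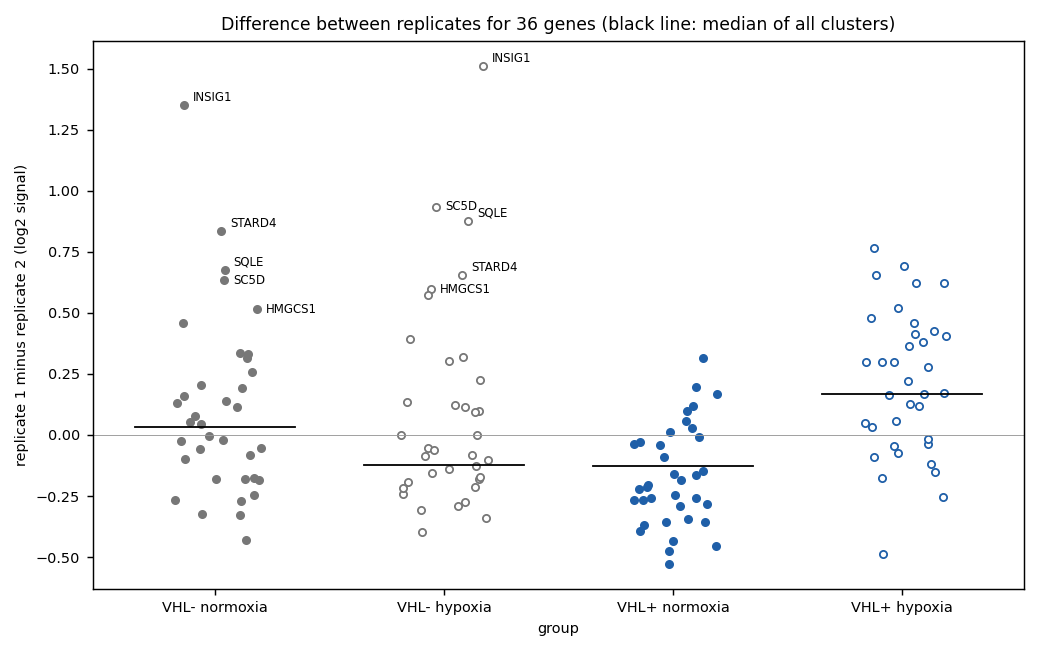
Replicate 1 minus replicate 2 in log2 signal for each of the 36 genes (points) in each of the 4 groups, with the median of all clusters as a black line and, in VHL- cells, 5 genes named that differ by more than 0.5. INSIG1 reaches 1.35 and 1.51 in VHL- cells, where SQLE, SC5D, STARD4 and HMGCS1 also lie above 0.5.

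Other genes of the same pathways were taken from a pair of lists drawn up, as the members were, with earlier results of these data known. Of 15 measured genes of sterol transport, storage and related steps, 1 was higher with VHL under normoxia (6.67%, 4.77% of all clusters), 5 were higher under hypoxia (33.3%, 11.6% of all clusters), and 5 were higher and 2 lower over both conditions (46.7%, 14.3% of all clusters). After quantile normalization 1 was higher and 1 lower under normoxia (5.42% of all clusters called) and likewise under hypoxia (5.50%). Over both conditions 3 were higher and 3 lower (16.0%). SOAT1, which esterifies cholesterol for storage, was higher by 0.74 under normoxia (SE 0.20, limma adjusted p = 0.0404) and by 1.33 under hypoxia (SE 0.20, limma adjusted p = 0.000340). LBR, a sterol reductase of the nuclear envelope, was higher by 0.57 over both conditions (SE 0.12, limma adjusted p = 0.000786), as was ACAT1, the mitochondrial thiolase, by 0.65 (SE 0.12, limma adjusted p = 0.000234). TMEM97 and NPC2, which act on cholesterol in lysosomes, were the 2 lower genes, with -0.46 (SE 0.11) and -0.32 (SE 0.10). Of 32 measured genes of fatty acid synthesis, activation and esterification, 1 was higher and 1 lower under normoxia (6.25%), 8 were higher and 1 lower under hypoxia (28.1%), and 8 were higher and 2 lower over both conditions (31.2%). After quantile normalization these became 1 higher and 2 lower under normoxia (5.42% of all clusters called) and 1 higher and 2 lower under hypoxia (5.50%). Over both conditions they became 5 higher and 3 lower (16.0%). HSD17B12, a reductase of fatty acid elongation, was lower, with a log2 fold change of -1.14 under normoxia (SE 0.14, limma adjusted p = 5.25e-05) and -0.82 under hypoxia (SE 0.14, limma adjusted p = 0.000944). ACSL1, which activates long-chain fatty acids, was higher by 0.76 under normoxia (SE 0.21, limma adjusted p = 0.0487) and by 1.26 under hypoxia (SE 0.21, limma adjusted p = 0.000925). No gene of either list passed in a comparison of hypoxia with normoxia. At an unadjusted p under 0.05, the sterol list had 1 gene in VHL- cells and 3 in VHL+ cells, and the fatty acid list had 2 and 4. The shares of all clusters were 5.30% in VHL- cells and 6.16% in VHL+ cells.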

How the data were processed

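Total RNA of VHL- and VHL+ 786-O cells kept for 24 h under normoxia or hypoxia (4 groups of 2 arrays, grouped by the labels) had been hybridised to gene arrays. According to the study's methods and the submitters' processing notes, the authors normalised the arrays by RMA in Partek and deposited log2 signals per transcript cluster; the versions and the genome build are not given in the sources used here. The 8 columns of log2 values were used as deposited.

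Contrasts were taken from 1 limma 3.58.1 fit in R 4.3.3 to the means of the 4 groups (residual degrees of freedom 4, prior 14.0) over all 33297 clusters, and a second fit with VHL and oxygen condition gave the effect of VHL over both conditions. P-values had the Benjamini-Hochberg adjustment over all clusters, and a gene passed below 0.05. Array symbols gave 19460 clusters 1 symbol, 1754 several and 12083 none. The members and lists were chosen with earlier results of these data known. Values on every array are given for members that passed in a comparison and for the 5 regulators, and, where none passed, the 2 members with the smallest p are named; GPAM and MSMO1 were given on every array as well. HSD17B12, ACSL1, SOAT1 and the other genes named from the pathway lists were chosen after their values were seen. So were IDI1, MVK, MSMO1, CYP51A1 and SCD among the replicate differences.

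Alternatives were quantile normalization, median centring, leaving out clusters that exceeded their array's median on fewer than 2 arrays, the replicate number as a block, a trend with robust estimation, the methods' one-way test at an unadjusted p under 0.005 and after adjustment, the mean of a gene's clusters, each array left out in turn and, added after seeing the data, quantile normalization with the block. The number of arrays limits the precision. Promoter sequences were matched by symbol to RefSeq (GRCh38.p14). Some genes of these pathways are not analysed here.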

Additional observations from a re-analysis of the deposited data

How the results depend on the processing

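No named log2 fold change changed sign past the threshold under an alternative, but the counts of calls did depend on the processing, and the cause was not tested. Shares of all clusters called in the same setting are given in parentheses. Of the 36 genes, VHL status under normoxia called 6 (4.77%). It called 3 after median centring (3.74%), 10 with the replicate number as a block (7.56%), 11 with quantile normalization and the block (3 higher and 8 lower, 7.93%), and 1 by the methods' one-way test at an unadjusted p under 0.005 (0.865%; 0 after adjustment, with 7 at an unadjusted p under 0.05). With 1 array left out the count ran from 3 without either VHL+ hypoxia array (1.42%) to 11 without either VHL- hypoxia array (7.66%), and was 10 without VHL+ normoxia replicate 2 (4.73%). VHL status under hypoxia called 5 (11.6%). The one-way test called 0 before and after adjustment (1.20% and 0.00300%), with 3 at an unadjusted p under 0.05 (8.33%, beside 10.5% of all clusters). In limma the count became 2 after median centring (4.27%), 2 after quantile normalization (5.50%), 11 with the block (7 higher and 4 lower, 15.0%) and 8 with quantile normalization and the block (2 higher and 6 lower, 8.21%). With 1 array left out it ran from 0 without VHL+ hypoxia replicate 2 (1.79%) to 11 without VHL- hypoxia replicate 2 (6 higher and 5 lower, 14.9%), with 1 without VHL+ hypoxia replicate 1 (0.769%) and 10 without either VHL+ normoxia array (15.3%). Hypoxia in VHL- cells called 0 (0.0661%), with 1 with the block (MSMO1, adjusted p = 0.0287; 0.661%) and 0 to 2 with 1 array left out, 1 of them without VHL- normoxia replicate 1 (0.456%) and 2 without VHL- hypoxia replicate 2 (0.847%). Hypoxia in VHL+ cells called 0 (0.153%), with 1 under a trend with robust estimation (MSMO1, adjusted p = 0.00425; 0.547%), 6 with the block (SQLE, MSMO1, DHCR7, SREBF2, INSIG1 and INSIG2, all as higher, and none of them after quantile normalization with the block; 1.01%) and 0 to 6 with 1 array left out. The count was 6 without either VHL- hypoxia array (0.913%), 3 without either VHL- normoxia array (0.628%) and 1 without VHL+ normoxia replicate 2 (1.06%). The interaction called 0 (0.00601%), and 0 to 1 with 1 array left out, the 1 without VHL- normoxia replicate 2 (0.222%) or VHL- hypoxia replicate 1 (0.165%). VHL over both conditions called 15 (14.3%), 13 after median centring (14.7%; 11 of the 15 genes shared), 16 with the block (16.0%), 21 with quantile normalization and the block (5 higher and 16 lower, 18.8%; 14 of the 15 shared) and 11 (7.27%) to 16 (12.3%) with 1 array left out. The replicate number was not taken as pairing, since no comparison has more than 2 numbers in a group. Over all clusters, deviations of the same number correlated by 0.605 within VHL- cells and 0.305 within VHL+ cells and by 0.0503 to 0.210 across cell types. Over the 36 genes these were 0.889 and 0.505 within cell types, 0.571 and 0.624 between the VHL- groups and VHL+ hypoxia, and -0.0621 and -0.00974 between the VHL- groups and VHL+ normoxia. With the block each comparison of VHL status kept every gene called without it. The mean of a gene's clusters and leaving out dim clusters moved no count of called genes among the 36 by over 1.5 times. Without dim clusters the clusters called fell from 22 to 2 for hypoxia in VHL- cells and from 51 to 8 in VHL+ cells. For the interaction they fell from 2 to 0. The share of clusters called rose from 14.3% to 23.9% for VHL over both conditions and from 11.6% to 17.6% for VHL under hypoxia. A group of 1 array was assumed to vary like the other groups. The number of arrays and the signal over background limit how small a change can be seen.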

Other observations

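Clusters with several symbols could not be assigned to 1 gene. The cluster shared by HSD17B7, a reductase of sterol synthesis, and its pseudogene HSD17B7P2 had 6.89 and 6.81 in VHL- and 6.81 and 7.01 in VHL+ cells under normoxia, and under hypoxia 7.22 and 7.01 in VHL- and 7.48 and 7.25 in VHL+ cells. Its hypoxic arrays lay above its normoxic arrays within each cell type. A cluster shared by FDPS and its pseudogene FDPSP2 had 7.28 and 7.43 in VHL- and 7.24 and 7.36 in VHL+ cells under normoxia, and under hypoxia 7.12 and 7.39 in VHL- and 7.67 and 7.60 in VHL+ cells. These values were not tested as those of a gene.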
